A study of Mus with 9 samples.

Results

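Genes that sense bacterial products and nucleic acids were followed in RNA sequencing counts of mouse bone marrow: the Toll-like receptor genes Tlr1, Tlr2, Tlr3, Tlr4, Tlr6, Tlr7, Tlr8, Tlr9 and Tlr13, and Cd14, which encodes a co-receptor. They were chosen by gene name, and each of the 10 matched 1 of the 54532 genes in the count table. Of the 10, 9 passed the filter on low counts and were tested, and Tlr3 did not. The plainest difference was in Cd14, which was 18.1-fold higher in the libraries labelled CCND2mut than in those labelled Vec and 7.36-fold lower in those labelled CCND2wt.

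The libraries set forms of cyclin D2, a cell cycle protein, beside an empty vector in cells with AML1-ETO, a fusion transcription factor found in acute myeloid leukaemia. In all 3 groups the donor cells were fetal liver cells of embryonic day 12.5 from mice with a conditional AML1-ETO knock-in tagged with mCherry, sorted after infection for mCherry and GFP and given to lethally irradiated C57BL/6 mice with supportive cells. The retroviral vector MSCV-IRES-EGFP was empty in Vec, held wild-type cyclin D2 in CCND2wt, and held cyclin D2 with alanine in place of threonine at residue 280 in CCND2mut. Each group had 3 libraries, numbered 1, 2 and 4 for Vec, 2, 3 and 4 for CCND2wt, and 1, 2 and 3 for CCND2mut. The labels call the material bone marrow cells and give no sort of the harvested marrow, so host and supportive cells may be included. The sources used here do not give the age of the recipient mice, the cells in which the knock-in was active, or whether the libraries of a group came from separate mice. The p-values therefore measure only the spread between these libraries, which may be technical.

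Toll-like receptors recognise conserved molecules of microbes and pass the signal through the adaptors MyD88 and TRIF to NF-kB, AP-1 and interferon regulatory factors. TLR4, TLR2, TLR1 and TLR6 sit at the cell surface and bind lipids and lipoproteins of bacteria, whereas TLR3, TLR7, TLR8, TLR9 and TLR13 sit in endosomes and bind nucleic acids. CD14 hands lipopolysaccharide to TLR4 and its partner MD-2, and in marrow it is known as a protein of monocytes and maturing granulocytes.

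Total counts per library were 15043755 to 17593634. Levels are CPM, read counts scaled to library size, and differences are log2 fold changes with their standard error (SE) from 1 edgeR model of all 9 libraries. Ccnd2 itself stood at 76.2 to 86.2 CPM in the libraries labelled Vec, at 7.30 to 11.1 in those labelled CCND2wt and at 12.6 to 58.2 in those labelled CCND2mut. Such lower counts would go against labels naming added cyclin D2 if transgene reads were counted at the mouse gene, which is not known. Every direction below is therefore a difference between libraries as they are labelled. Vec 1 stood apart, with 1.51% of its counts in haemoglobin genes and 0.588% in immunoglobulin genes. The CCND2wt libraries were the closest to each other, with a chi-square of 7.0 to 17.7 per gene against 53.3 to 148 within the other groups. Counting error alone would give about 1 in this measure. The level of a gene in bulk marrow cannot tell fewer cells of a type from less RNA per cell.

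In CCND2wt against Vec, Cd14 and Tlr9 fell and 0 of the 9 tested genes rose. An edgeR adjusted p under 0.05, over all 15660 tested genes, was the threshold, and 18.8% of all tested genes passed it in this comparison (9.71% higher and 9.05% lower). In CCND2mut against Vec, Cd14 and Tlr4 rose and 0 of 9 fell, where 51.8% of all genes passed (24.9% higher and 26.9% lower). In CCND2mut against CCND2wt, Cd14, Tlr1, Tlr4, Tlr6 and Tlr8 rose and 0 of 9 fell, where 47% of all genes passed (23.2% higher and 23.8% lower). The number of the 9 at an unadjusted p under 0.05 was 4, 3 and 6 in the 3 comparisons. The median log2 fold change of the 9 was -1.24, 1.35 and 2.70, beside -0.04, -0.03 and 0.02 over all tested genes. Libraries of both groups did not overlap for 0 higher and 1 lower of the 9 in CCND2wt against Vec (24.6% and 23.7% of all tested genes), for 2 higher and 0 lower in CCND2mut against Vec (27.4% and 29.2%), and for 7 higher and 0 lower in CCND2mut against CCND2wt (30.9% and 32.2%; 63.1% in either direction). The comparisons share libraries, so they do not repeat each other independently. Without Vec 1, 0 of the 9 fell in CCND2wt against Vec, and 5 rose in CCND2mut against Vec: Tlr1, Tlr4, Tlr8, Tlr13 and Cd14. Without CCND2mut 1, only Cd14 rose in CCND2mut against Vec. With both of these libraries left out, a setting chosen after the data were seen, 4 rose there. The calls over all genes also shifted when single libraries were left out. They ranged from 1019 to 3817 in CCND2wt against Vec (2938 with all libraries) and from 7148 to 8220 in CCND2mut against Vec (8119).

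**Figure D1:**
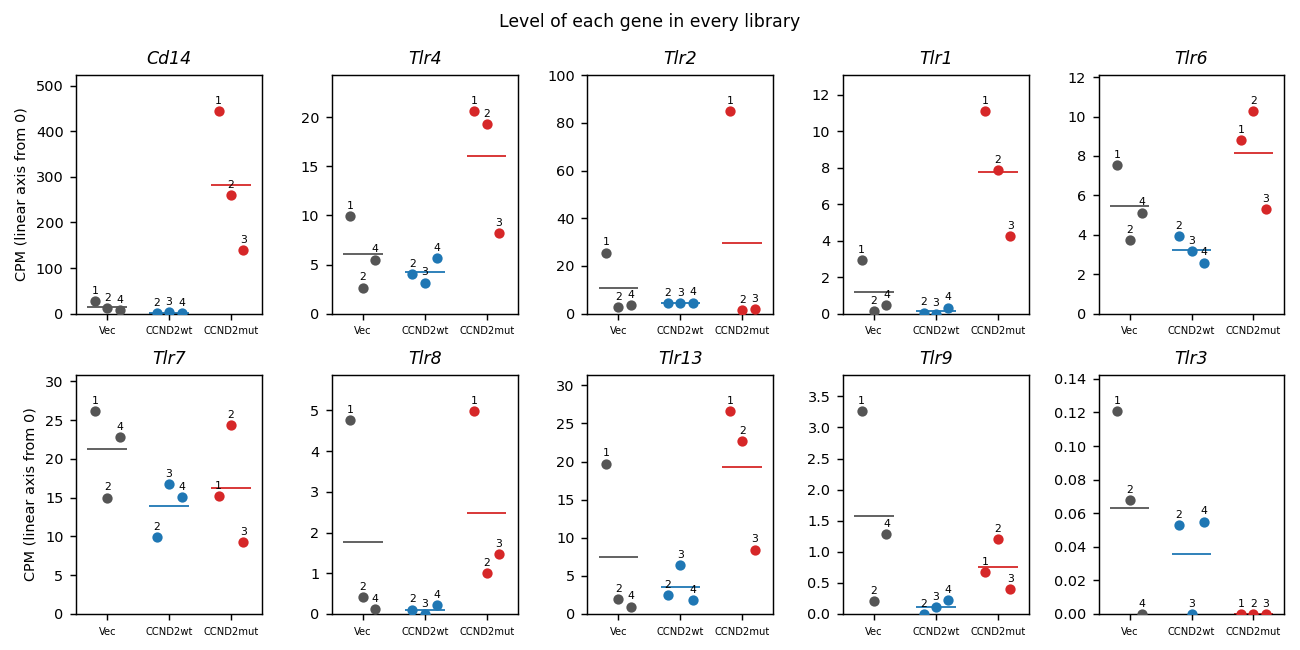
Level of each gene (CPM, linear axis from 0, own scale per panel) in every library; points are libraries with their replicate number and lines are group means of 3. Cd14 lies at 140 to 444 CPM in CCND2mut and below 27 CPM in the other 6 libraries, while for Tlr2 the library CCND2mut 1 stands alone at 85.0 CPM.

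**Figure D2:**
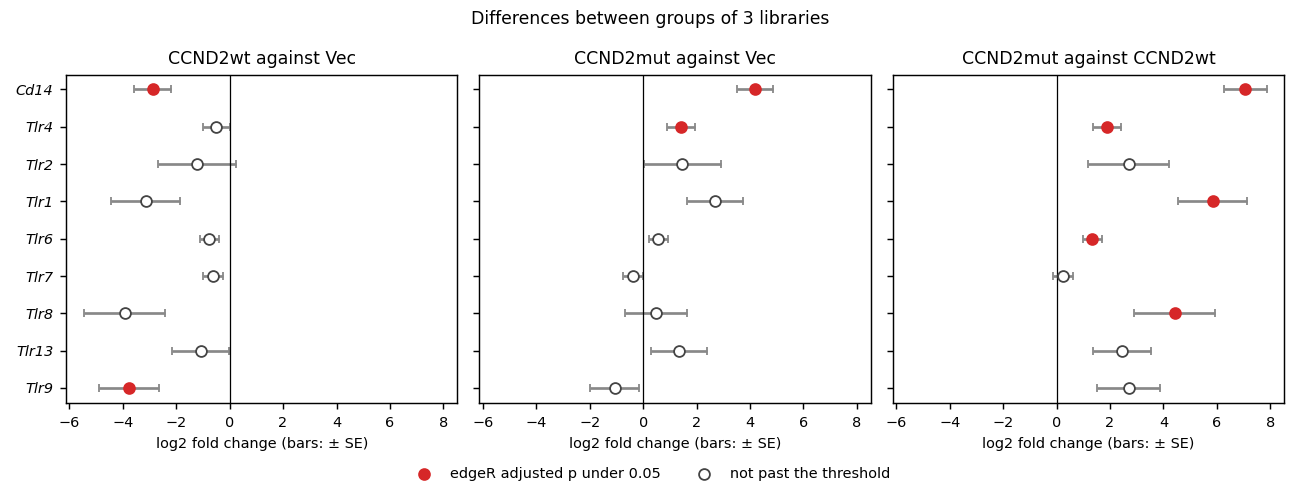
Log2 fold change of the 9 tested genes in the 3 comparisons, with bars of 1 SE; filled points passed an edgeR adjusted p of 0.05. Cd14 is filled in all 3 panels, and Tlr7 lies within 1 log2 unit of 0 in each.

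Cd14 (ENSMUSG00000051439) lies on chromosome 18 at 36725074 to 36726736 in mm10, on the minus strand. It stood at 26.8, 11.4 and 8.27 CPM in Vec 1, 2 and 4. It stood at 1.53, 3.91 and 0.881 CPM in CCND2wt 2, 3 and 4, and at 444, 260 and 140 CPM in CCND2mut 1, 2 and 3. No library of a group overlapped with those of another group: all 3 CCND2wt libraries were below all Vec libraries, and all 3 CCND2mut libraries were above them. Groups did not overlap, in either direction, in 48.3% of all tested genes for CCND2wt against Vec and in 56.7% for CCND2mut against Vec.

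Against Vec (15.5 ± 9.91 CPM, mean ± SD, n = 3), Cd14 rose by 4.18 in CCND2mut (281 ± 153 CPM, SE 0.685, edgeR adjusted p = 0.00138). Only 279 of the 15660 tested genes had a larger log2 fold change there. This call held in all 19 alternative settings, with a log2 fold change of 3.69 to 4.83. In CCND2wt (2.11 ± 1.59 CPM) Cd14 fell by 2.88 (SE 0.694, edgeR adjusted p = 0.0246), and 13 of 19 settings kept the call, with a range of edgeR, DESeq2 or limma adjusted p of 5.79e-05 to 0.312. The call was lost without Vec 1 (log2 fold change -2.20), without CCND2wt 2 or without CCND2wt 4. It was also lost with limma-voom, with no filter on low counts and with the CCND2wt libraries summed to 1 sample. The direction stayed the same in all 19. Between CCND2mut and CCND2wt the difference was 7.06 (SE 0.80, edgeR adjusted p = 0.000249), or 134-fold.

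Tlr4 (ENSMUSG00000039005), the lipopolysaccharide receptor to which CD14 delivers its ligand, lies on chromosome 4 at 66827584 to 66930284. It stood at 9.96, 2.65 and 5.51 CPM in Vec 1, 2 and 4, at 4.02, 3.17 and 5.67 CPM in CCND2wt 2, 3 and 4, and at 20.6, 19.3 and 8.17 CPM in CCND2mut 1, 2 and 3. CCND2mut 3 lay below Vec 1, so these groups overlapped, while CCND2mut and CCND2wt did not. Tlr4 rose in CCND2mut against Vec by 1.41 (SE 0.518, edgeR adjusted p = 0.048), a call that sat close to the threshold and held in 9 of 19 settings (adjusted p from 0.0142 to 0.123 in edgeR, DESeq2 or limma). It was lost on leaving out any of Vec 2, Vec 4, CCND2mut 1, CCND2mut 2 or a CCND2wt library, with the direction the same throughout. Against CCND2wt the rise in CCND2mut was 1.90 (SE 0.526, edgeR adjusted p = 0.0168), a call kept in 16 of 19 settings. It was lost without CCND2wt 2 or CCND2wt 3, and when the CCND2wt libraries were summed to 1 sample. In CCND2wt against Vec its value was -0.50 (adjusted p = 0.534 in edgeR), and 0.09 without Vec 1.

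Per kilobase of transcript, Cd14 exceeded Tlr4 by 5.30 to 15.2 times in the Vec libraries and by 47.7 to 76.1 times in the CCND2mut libraries. In CCND2wt the ratio was 0.549 to 4.35. This ratio is taken within a library and needs no scaling between libraries, and its 3 ranges did not overlap. Ly96, which encodes MD-2, stood at 0.449 to 1.27 CPM over all 9 libraries and did not pass the test in any comparison (named outside the rule for list genes). Lbp, the secreted protein that carries lipopolysaccharide to CD14, stood at 31.2 to 35.1 CPM in Vec, 11.5 to 15.2 CPM in CCND2wt and 270.0 to 361 CPM in CCND2mut. It fell by 1.24 in CCND2wt and rose by 3.29 in CCND2mut against Vec (edgeR adjusted p = 0.00188 and 8e-06).

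Tlr2 (ENSMUSG00000027995; chromosome 3, 83836272 to 83841767) binds bacterial lipoproteins as a partner of TLR1 or TLR6. It stood at 25.6, 2.78 and 3.59 CPM in Vec 1, 2 and 4, at 4.50, 4.42 and 4.68 CPM in CCND2wt, and at 85.0, 1.47 and 2.06 CPM in CCND2mut 1, 2 and 3. The high group means of CCND2mut (29.5 ± 48.1 CPM) and Vec (10.7 ± 12.97 CPM) thus each rested on 1 library, and within CCND2mut the highest library exceeded the lowest 57.9-fold. Tlr2 passed the test in no comparison, with log2 fold changes of -1.24, 1.46 and 2.70 (SE 1.46, 1.44 and 1.51; edgeR adjusted p = 0.587, 0.419 and 0.176) for CCND2wt against Vec, CCND2mut against Vec and CCND2mut against CCND2wt. Leaving out CCND2mut 1 turned the last 2 to -2.60 and -1.36. With Vec 1 also left out, Tlr2 was lower in CCND2mut than in CCND2wt by a log2 fold change of -1.37 (edgeR adjusted p = 0.00651).

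Vec 1 and CCND2mut 1 were also the libraries with the highest summed level of maturing neutrophil markers, 14362 and 18941 CPM against 140 to 4029 in the other 7. Mmp8, a neutrophil collagenase named outside the rule for list genes, stood at 222 CPM in Vec 1 and 597 in CCND2mut 1. It stood at 2.10 to 49.4 CPM in the others. Ly6g and Cxcr2 of the same list differed from this, with CCND2mut 1 the lowest of its group. Over the CCND2mut libraries they ranged from 4.01 to 27.5 CPM and from 100 to 243 CPM. The summed monocyte and macrophage markers were the highest of their group in Vec 1 (310 against 47.4 and 64.1 CPM) and the lowest in CCND2mut 1 (1327 against 2276 and 4460 CPM). The part of these cells in the level of Tlr2 was not tested.

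Tlr1 (ENSMUSG00000044827; chromosome 5, 64924679 to 64933563) and Tlr6 (ENSMUSG00000051498; chromosome 5, 64952031 to 64960097) are neighbours on the minus strand, with 18467 bases between them. They are related in sequence, and how the counting treated reads that fit both is not given in the sources used here, so that their split is uncertain to that extent. Tlr1 stood at 2.96, 0.136 and 0.449 CPM in the Vec libraries, at 0.0529, 0 and 0.330 CPM in CCND2wt, and at 11.1, 7.88 and 4.25 CPM in CCND2mut. These rest on 58, 7 and 365 counts per group, and the count of 0 in CCND2wt 3 allows up to 0.170 CPM. All CCND2mut libraries lay above all others. The rise of Tlr1 in CCND2mut against CCND2wt was 5.84 (SE 1.30, edgeR adjusted p = 0.00611), kept in 18 of 19 settings and lost when the CCND2wt libraries were summed to 1 sample. Against Vec it was 2.69 (SE 1.03, edgeR adjusted p = 0.0562) and did not pass; without Vec 1 it was 4.68 and passed (edgeR adjusted p = 0.00468).

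Tlr6 varied far less. It stood at 7.54, 3.73 and 5.13 CPM in the Vec libraries, at 3.92, 3.17 and 2.59 CPM in CCND2wt, and at 8.80, 10.3 and 5.31 CPM in CCND2mut. CCND2mut lay above CCND2wt in every library, by a log2 fold change of 1.33 (SE 0.360, edgeR adjusted p = 0.015), and overlapped with Vec (0.57, edgeR adjusted p = 0.204). The call against CCND2wt was kept in 14 of 19 settings, with the same direction in all 19. It was lost without CCND2wt 3, CCND2wt 4 or CCND2mut 2. It was also lost with the replicate number as a block and with the CCND2wt libraries summed to 1 sample. Per kilobase, Tlr6 exceeded Tlr1 by 2.29 to 24.7 times in Vec and stood at 0.711 to 1.17 times Tlr1 in CCND2mut.

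Tlr7 (ENSMUSG00000044583; chromosome X, 167304929 to 167330558), a receptor of single-stranded RNA, differed least among the tested members between CCND2mut and CCND2wt. It stood at 26.1, 15.01 and 22.8 CPM in the Vec libraries, at 9.95, 16.7 and 15.02 CPM in CCND2wt, and at 15.2, 24.4 and 9.30 CPM in CCND2mut. All 3 groups overlapped. Its log2 fold changes were -0.62, -0.39 and 0.23 in the 3 comparisons (SE 0.37 in each, edgeR adjusted p = 0.265, 0.399 and 0.638), and none of 19 settings called it. The last of these values turned to -0.22 without CCND2mut 2.

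Tlr8 (ENSMUSG00000040522; chromosome X, 167242696 to 167264329) is the neighbour of Tlr7, with 40599 bases between them and on the same strand, and encodes a related endosomal receptor. It stood at 4.77, 0.407 and 0.128 CPM in the Vec libraries, at 0.106, 0 and 0.220 CPM in CCND2wt, and at 4.98, 1.00 and 1.46 CPM in CCND2mut. Vec 1 and CCND2mut 1 were again the highest libraries of their groups. CCND2wt had 6 counts in all, and its count of 0 in CCND2wt 3 allows up to 0.170 CPM. Tlr8 rose in CCND2mut against CCND2wt by 4.42 (SE 1.52, edgeR adjusted p = 0.0392), a call kept in 10 of 19 settings and lost on leaving out any CCND2wt library, CCND2mut 1 or CCND2mut 3. Its value in CCND2mut against Vec was 0.48 (SE 1.16, edgeR adjusted p = 0.746); without Vec 1 it was 3.18 and passed (edgeR adjusted p = 0.0334). In CCND2wt against Vec its value was -3.93 (edgeR adjusted p = 0.0993).

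Tlr13 (ENSMUSG00000033777; chromosome X, 106143204 to 106160493), a receptor of bacterial ribosomal RNA in mice, stood at 19.7, 1.90 and 0.962 CPM in Vec. It stood at 2.43, 6.40 and 1.82 CPM in CCND2wt and at 26.6, 22.7 and 8.43 CPM in CCND2mut. All CCND2mut libraries lay above all CCND2wt libraries, but the difference of 2.44 (SE 1.08) did not pass the test (edgeR adjusted p = 0.0957). Against Vec it was 1.35 (edgeR adjusted p = 0.303), with Vec 1 inside the range of CCND2mut; without Vec 1 the value was 3.74 and passed (edgeR adjusted p = 0.00573). In CCND2wt against Vec the value of -1.09 (edgeR adjusted p = 0.50) turned to 1.34 without Vec 1.

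Tlr7, Tlr8 and Tlr13 are X-linked, and sex-linked genes differed between the libraries. Xist, which coats the inactive X chromosome, stood at 170, 10.7 and 879 CPM in the Vec libraries, at 2111 to 2305 CPM in CCND2wt, and at 4.31, 11.8 and 4.91 CPM in CCND2mut. The Y-linked gene Ddx3y stood at 134, 318 and 64.5 CPM in the Vec libraries, at 0.605 to 0.635 CPM in CCND2wt, and at 27.4 CPM in CCND2mut 1. All 4 listed Y-linked genes (Ddx3y, Uty, Kdm5d and Eif2s3y) had 0 counts in CCND2mut 2 and 3, so low Xist did not come with Y-linked counts there. The part of sex in the levels of the X-linked receptors was not tested.

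Tlr9 (ENSMUSG00000045322; chromosome 9, 106222598 to 106226883), the receptor of unmethylated CpG DNA, stood at 3.26, 0.204 and 1.28 CPM in Vec. It stood at 0, 0.113 and 0.220 CPM in CCND2wt and at 0.668, 1.202 and 0.399 CPM in CCND2mut. CCND2wt had 6 counts in all against 77 in Vec, and the count of 0 in CCND2wt 2 allows up to 0.159 CPM. Vec 2 lay just below the highest CCND2wt library, so the groups overlapped. Tlr9 fell in CCND2wt against Vec by 3.76 (SE 1.13, edgeR adjusted p = 0.0471). This call held in 5 of 18 settings, with an adjusted p of 0.00755 to 0.419 in edgeR, DESeq2 or limma. It was lost on leaving out any 1 library other than Vec 2, with the same direction in all 18 and a value of -2.66 without Vec 1. In CCND2mut its value was -1.07 against Vec and 2.70 against CCND2wt (edgeR adjusted p = 0.348 and 0.0826). Summed B cell markers, the cells in which Tlr9 is well known, were at 1226 CPM in Vec 1, 93.2 to 149 in the other Vec libraries, 32.1 to 36.6 in CCND2wt and 23.4 to 80.0 in CCND2mut. The part of B cells in the level of Tlr9 was not tested.

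Tlr3 (ENSMUSG00000031639; chromosome 8, 45395665 to 45411080), the receptor of double-stranded RNA, was close to the limit of detection. It had 2, 1 and 0 counts in Vec 1, 2 and 4, 1, 0 and 1 in CCND2wt 2, 3 and 4, and 0 in each CCND2mut library. Counts of 0 allow up to 0.182 to 0.200 CPM in the CCND2mut libraries, and no difference was detectable at this depth. Of the mouse family members outside the 10, Tlr11 had 0 counts in all 9 libraries and Tlr5, the flagellin receptor, had 32, 9 and 1 counts per group, 31 of the 32 in Vec 1. Tlr12, a receptor for a protozoan profilin, stood at 1.63 to 2.90 CPM in Vec, 0.906 to 1.32 CPM in CCND2wt and 0.266 to 1.00 CPM in CCND2mut. It fell in CCND2mut against Vec (-2.01, SE 0.492, edgeR adjusted p = 0.00862).

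Levels of different genes were compared as CPM per kilobase of gene model. In Vec the order was Cd14 (9.85 ± 6.31, mean ± SD, n = 3), Tlr7 (5.22 ± 1.40), Tlr2 (3.54 ± 4.30), Tlr13 (1.75 ± 2.46), Tlr6 (1.47 ± 0.517), Tlr4 (1.09 ± 0.663), Tlr8 (0.493 ± 0.726), Tlr9 (0.455 ± 0.445), Tlr1 (0.353 ± 0.462) and Tlr3 (0.0121 ± 0.0116). Of the 9 pairs of neighbours in this order, only Tlr1 and Tlr3 did not overlap between libraries. In CCND2wt Tlr7 came first (3.40 ± 0.863), clear of Tlr2 (1.503 ± 0.0441), and Cd14 was the third (1.34 ± 1.01). A second gap there lay between Tlr4 (0.772 ± 0.228) and Tlr1 (0.0382 ± 0.0530), and the other 7 neighbouring pairs overlapped. In CCND2mut Cd14 (179 ± 97.5) stood clear of all the receptors, above 98.1% of all tested genes by this measure, against 66.8% in Vec and 27.5% in CCND2wt. The receptors that followed, Tlr2, Tlr13, Tlr7, Tlr4, Tlr1 and Tlr6, overlapped with their neighbours, Tlr6 (2.18 ± 0.684) and Tlr8 (0.692 ± 0.607) did not, and Tlr9 and Tlr3 came last.

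Within a library, the make-up of the 9 receptor transcripts also differed. Tlr7 took 54.5% and 56.4% of the summed CPM per kilobase in Vec 2 and Vec 4 and 24.2% in Vec 1. It took 38.5%, 48.2% and 48.4% in CCND2wt, and 7.58%, 28.5% and 23.7% in CCND2mut 1, 2 and 3. Tlr1 took at most 3.34% in any Vec or CCND2wt library and 6.77% to 13.2% in CCND2mut. Tlr2 took 57.5% in CCND2mut 1 but 2.33% and 7.11% in CCND2mut 2 and 3, the lowest shares of all libraries. The 4 surface receptors together made up 36.2% to 49.9% in Vec, 34.0% to 51.9% in CCND2wt and 43.3% to 76.6% in CCND2mut, ranges that overlapped.

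**Figure D3:**
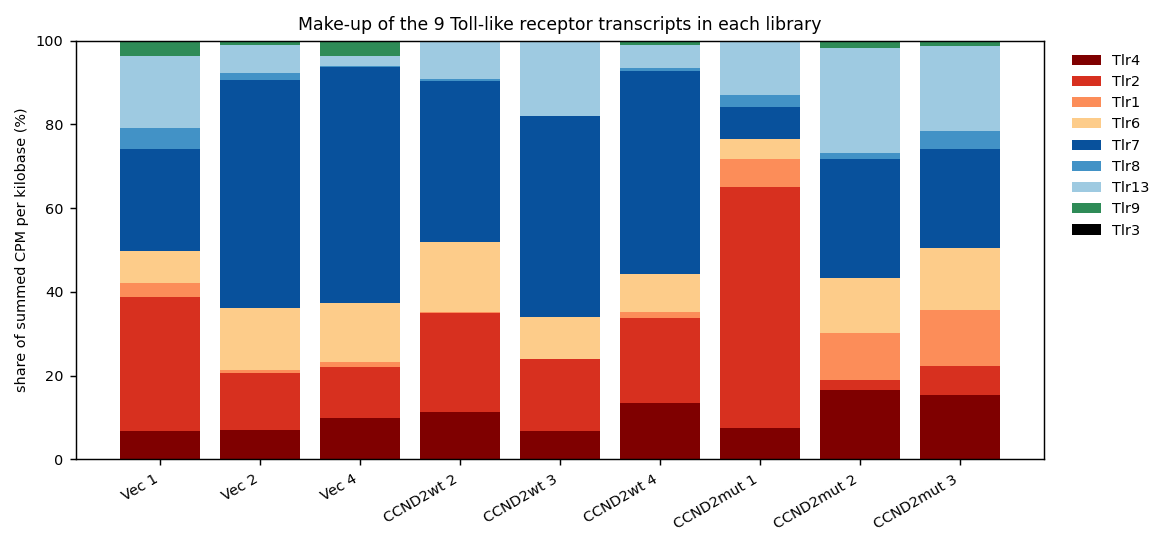
Share (%) of each of the 9 receptor genes in their summed CPM per kilobase, 1 bar per library, with surface receptors in reds at the bottom and the endosomal ones above. Tlr2 is the widest band in Vec 1 and CCND2mut 1 (32.1% and 57.5%), and Tlr7 in the other 7 libraries.

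Among the called genes that work with the receptors, most fell in CCND2wt against Vec, and both directions were common in CCND2mut. Beside the Toll-like receptor genes and Cd14, 102 genes of the pathway were listed, of which 92 were tested. In CCND2wt against Vec 2 rose and 21 fell (18.8% of all tested genes passed), with a median log2 fold change of -0.47. In CCND2mut against Vec 18 rose and 34 fell, with a median of -0.26 (51.8% of all genes, 24.9% higher and 26.9% lower). In CCND2mut against CCND2wt 34 rose and 19 fell, with a median of 0.07 (47% of all genes, 23.2% higher and 23.8% lower). Without Vec 1 the numbers were 2 and 19, 22 and 33, and 35 and 21, and without CCND2mut 1 they were 4 and 26, 18 and 38, and 28 and 22.

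Of 7 tested co-receptor and delivery genes, 4 fell in CCND2wt against Vec (18.8% of all tested genes passed). In CCND2mut against Vec 1 rose and 2 fell (51.8% of all genes passed). In CCND2mut 3 rose and 2 fell without Vec 1, and 1 rose and 4 fell of 9 tested without CCND2mut 1. Besides Lbp, Itgam and Itgb2, the 2 chains of the complement receptor CR3, fell in CCND2wt (-3.16 and -2.47, edgeR adjusted p = 0.0387 and 0.0466), as did Pik3ap1, the adaptor BCAP (-1.93). Itgb2 stood at 238 CPM in Vec 1 and at 26.3 and 45.5 in Vec 2 and 4. Cd180, a relative of TLR4 on B cells, stood at 22.9 to 40.1 CPM in Vec and at 1.53 to 4.37 CPM in CCND2mut, where it fell by 3.49 (edgeR adjusted p = 0.000212).

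Of 12 genes of endosomal transport, folding and processing, 1 rose and 3 fell in CCND2wt against Vec (18.8% of all tested genes passed). In CCND2mut against Vec 2 rose and 2 fell (51.8% of all genes passed). In CCND2mut 4 rose and 2 fell without Vec 1, 4 rose and 3 fell without CCND2mut 1, and 6 rose and 3 fell without both. Unc93b1, the chaperone that carries the endosomal receptors out of the endoplasmic reticulum, stood at 112, 66.8 and 68.8 CPM in Vec and at 11.4, 10.8 and 10.2 in CCND2wt, where it fell by 2.93 (edgeR adjusted p = 0.023). In CCND2mut it stood at 136, 25.1 and 21.2 CPM, with CCND2mut 1 apart, as for Tlr2. Hsp90b1, the chaperone gp96 needed for folding of most of these receptors, rose in both groups against Vec, by 0.91 and 1.46 (edgeR adjusted p = 0.0306 and 0.00124). Ctss, a protease of endosomes, fell by 3.75 in CCND2wt (edgeR adjusted p = 0.00856).

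Of the 4 tested adaptors, 0 passed in CCND2wt against Vec (also 0 at an unadjusted p under 0.05 in edgeR). In CCND2mut 1 rose and 1 fell. Of all tested genes, 18.8% and 51.8% passed in these comparisons. Tirap, which brings MyD88 to TLR4 and TLR2, stood at 15.5, 4.07 and 7.12 CPM in Vec and at 30.3, 22.5 and 26.4 in CCND2mut (1.57, SE 0.427, edgeR adjusted p = 0.0143). Ticam2, which brings TRIF to TLR4, fell by 1.26 (edgeR adjusted p = 0.0266). Of 16 kinases and ubiquitin ligases, 4 fell and 0 rose in CCND2wt against Vec (18.8% of all tested genes passed). In CCND2mut 4 rose and 4 fell (51.8% of all genes passed). In CCND2mut Chuk and Tab1, parts of the IKK and TAK1 complexes, rose by 0.70 and 0.95, and the ubiquitin ligase Traf6 fell by 1.12 (edgeR adjusted p = 0.00043, 0.000494 and 0.00141).

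Of the 12 inhibitors of the pathway, 2 fell and 0 rose in CCND2wt against Vec (18.8% of all tested genes passed). In CCND2mut against Vec 2 rose and 5 fell (51.8% of all genes passed). Without Vec 1 these were 1 fallen in CCND2wt, and 4 risen and 4 fallen in CCND2mut. In CCND2mut Sigirr, a receptor that dampens signalling of TLR4 and the interleukin 1 receptor, went from 102, 102 and 109 CPM in Vec to 19.6, 28.1 and 17.9 CPM (-2.25, edgeR adjusted p = 3.89e-05). Tollip rose by 0.79, and Irak3, an inhibitory member of the IRAK family (chosen after its values were seen), rose by 2.32 (edgeR adjusted p = 0.000439 and 0.00577). Of 11 transcription factors, 9 fell and 0 rose in CCND2mut against Vec, with a median of -1.26 (26.9% of all tested genes fell). Without Vec 1, 9 fell there, and 7 fell without CCND2mut 1 or without both of these libraries. In CCND2wt against Vec 2 fell (9.05% of all genes), 4 without Vec 1, and 5 with CCND2mut 1 also left out. Rela, an NF-kB subunit, fell by 1.5, and Irf7, Irf3 and Irf8 fell by 2.49, 0.64 and 3.26 in CCND2mut (Irf8 was chosen after its values were seen). Nfkb1, the precursor of another subunit, had a log2 fold change of 0.19 there (edgeR adjusted p = 0.151) and fell by 0.63 in CCND2wt.

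Of 17 tested target genes, 3 fell and 0 rose in CCND2wt against Vec (18.8% of all tested genes passed). In CCND2mut against Vec 4 rose and 6 fell (51.8% of all genes passed). Without CCND2mut 1, 5 of 19 tested fell and 1 rose in CCND2wt. Il6, an inflammatory cytokine, went from 2.66, 0.679 and 1.795 CPM in Vec to 16.8, 172 and 96.8 CPM in CCND2mut (5.78, edgeR adjusted p = 0.000905). The chemokines Ccl2 and Ccl4 fell there by 6.30 and 4.42, and Ccl4 and Ccl3 fell in CCND2wt by 6.14 and 6.96. Ccl3 stood at 91.1, 56.5 and 12.1 CPM in the Vec libraries, at 0.283 to 0.688 CPM in CCND2wt and at 62.5, 99.1 and 34.7 CPM in CCND2mut. Il12b and Ifnb1 had at most 0.128 CPM in any library.

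**Figure D4:**
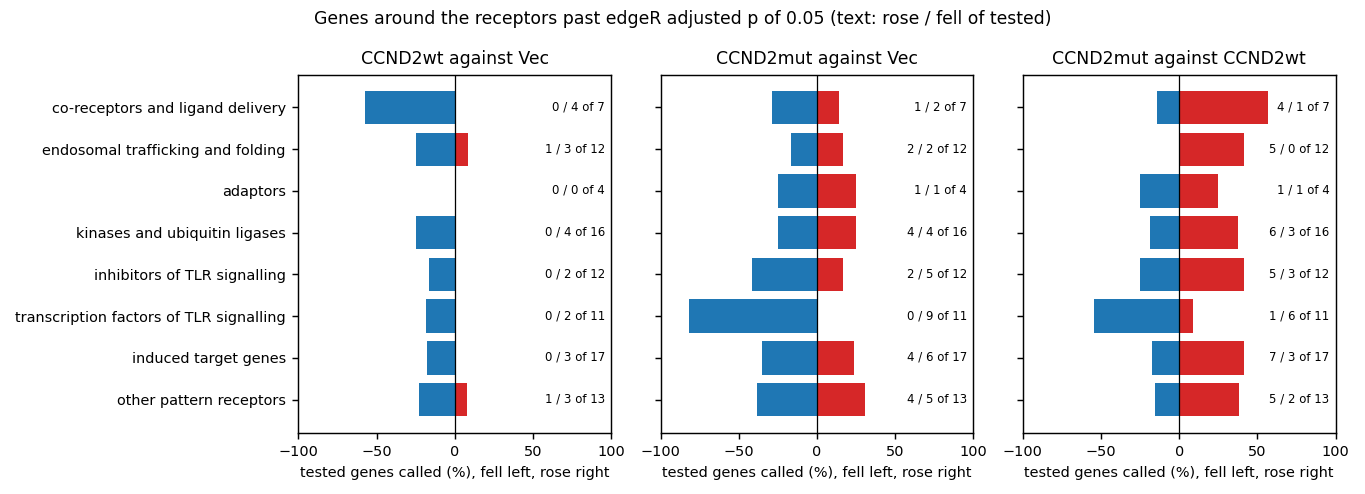
Share (%) of the tested genes of each list that rose (right, red) or fell (left, blue) at an edgeR adjusted p of 0.05 in the 3 comparisons; the text in each row gives rose / fell of tested. Of the 8 lists drawn, the transcription factors have the longest bar, 9 of 11 lower in CCND2mut than in Vec.

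Markers of blood cell types also differed between the groups. Of all tested genes, 24.9% passed as higher and 26.9% as lower in CCND2mut against Vec. These shares were 9.71% and 9.05% in CCND2wt against Vec, and 23.2% and 23.8% in CCND2mut against CCND2wt. The 10 monocyte and macrophage markers summed to 47.4 to 310 CPM in Vec, 42.5 to 45.8 in CCND2wt and 1327 to 4460 in CCND2mut. Of 9 tested, 4 rose and 1 fell in CCND2mut against Vec (6 and 0 without Vec 1), and most of the sum was Ly6c2 (930, 1732 and 4208 CPM in CCND2mut 1, 2 and 3). Fcgr1, the high-affinity IgG receptor of macrophages, had at most 0.133 CPM in CCND2mut and 0 counts in CCND2mut 2. The 10 markers of maturing neutrophils summed to 482 to 14362 CPM in Vec, 140 to 251 in CCND2wt and 3113 to 18941 in CCND2mut, with 1 of 10 higher in CCND2mut than in Vec and 7 of 10 higher than in CCND2wt. The first of these counts rested on Vec 1: without it 7 of 10 were higher, and with CCND2mut 1 also left out 6 of 10 were higher and 1 lower. The 8 mast cell and basophil markers summed to 7171 to 10039 CPM in Vec, 16456 to 17008 in CCND2wt and 1354 to 10609 in CCND2mut. Of them, 5 of 8 were higher in CCND2wt and 3 of 8 in CCND2mut than in Vec, beside 9.71% and 24.9% of all tested genes. The dendritic cell markers summed to 16.8 to 31.1 CPM in Vec, 90.6 to 99.998 in CCND2wt and 13.8 to 34.8 in CCND2mut. Clec10a alone made up most of the sum in CCND2wt, with 81.6 to 87.8 CPM against 7.30 to 14.3 in Vec. Of these 8 markers, Cd209a had 0 counts in all 6 libraries of the CCND2wt and CCND2mut groups, and Siglech of plasmacytoid cells had at most 0.113 CPM there. Stem and progenitor markers summed to 2077 to 2733 CPM in Vec, 2587 to 2651 in CCND2wt and 504 to 1330 in CCND2mut, with 6 of 8 lower in CCND2mut than in Vec. Red cell markers summed to 147 to 17058 CPM in Vec, 1087 to 1305 in CCND2wt and 31.7 to 299 in CCND2mut. All 8 red cell and all 8 B cell markers passed the test as lower in CCND2mut than in Vec, and 6 of 8 of each without Vec 1. The groups did not overlap for only 1 of the 8 red cell markers and for 6 of the 8 B cell markers (29.2% of all tested genes in this direction). Of 4 tested T and NK cell markers, 1 rose and 2 fell. The part of these cell types in the levels of Cd14 and the receptors was not tested.

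**Figure D5:**
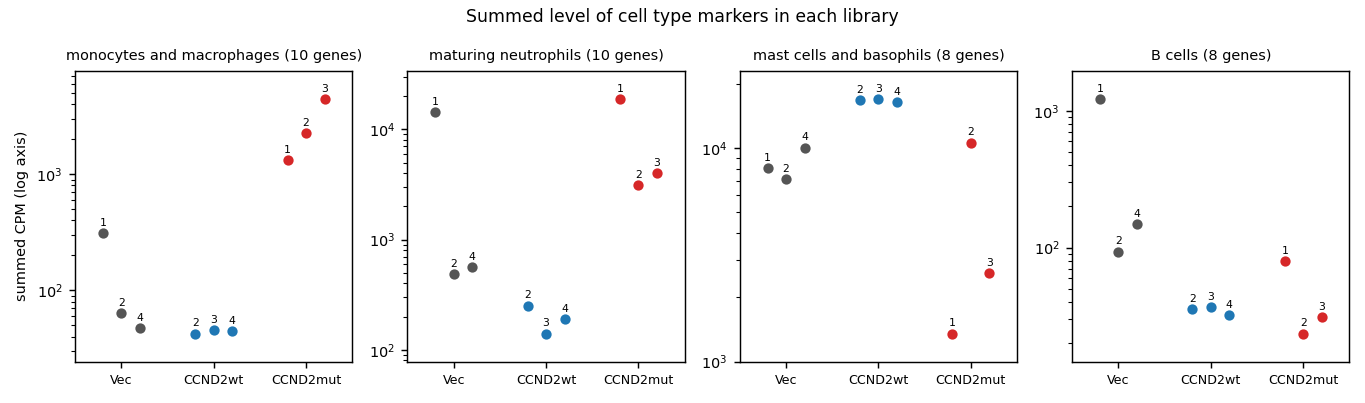
Summed CPM of 4 marker lists (log axis) in each library, with replicate numbers. All 3 CCND2mut libraries lie above the other 6 for monocyte and macrophage markers (1327 to 4460 CPM), and Vec 1 and CCND2mut 1 are the highest for maturing neutrophil markers.

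The genes whose pattern was most like that of each receptor were sought among 11960 protein-coding genes whose mean level reached 1 CPM, by Pearson's r of log2 CPM over the same 9 libraries, which fall into 3 groups. The closest to Cd14 were Sh3tc1 (0.991), Csf2ra (0.988), which encodes the alpha chain of the GM-CSF receptor, Cnppd1, Trappc10 and Hsd17b11. The closest to Tlr1 were Rab11fip4 (0.993), Agfg2, Stk38, Chil3, a secreted lectin of myeloid cells, and Zbtb7b, and the closest to Tlr2 were Acvrl1 (0.980), Rin2, Armc7, Tfeb and Asb7. The closest to Tlr4 was Col1a1 (0.975), to Tlr6 Hcst (0.952), to Tlr8 Asb6 (0.993) and to Tlr9 Plekhb2 (0.949), and Tlr3 had too few counts for this. The closest to Tlr13 were Tmem50b (0.943), Fgr, a kinase of myeloid cells, Slc16a1, Ccl6 and Tmcc1. For Tlr7 the likeness was the lowest, with Cln8 (0.904) and Samhd1 (0.897) first. None of the 9 genes was among the 5 closest to another.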

How the data were processed

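The authors deposited raw read counts per gene with gene lengths. The submitters' processing notes name the build mm10 and list, without saying what each did, featureCounts 1.5.0-p3, HISAT2 2.0.5, fastp, CASAVA 1.8 and DESeq2 1.20.0. The sources used here do not give the annotation release or the strand setting. The gene lengths are those of the deposited table. Libraries were joined to groups by title, and 0 count columns were left over.

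Genes were filtered with filterByExpr (15660 of 54532 left), scaled by TMM and fitted in 1 quasi-likelihood model of all 9 libraries in edgeR 4.0.16 (R 4.3.3, limma 3.58.1, DESeq2 1.42.0), with 6 residual degrees of freedom, without the replicate number. Benjamini-Hochberg adjustment of the p-values ran over every tested gene, and 0.05 was the threshold. Standard errors came from the fitted coefficient and its F value. A count of 0 was given a limit of 3 counts, which covers counting error only. Alternatives were other scaling, filters and tools, 2-group fits, the replicate block, summed CCND2wt libraries and each library left out. The fit was tested on simulated data with 3 libraries per group. It recovered 17.6% to 26.8% of changes of 2-fold and 76.5% to 78.6% of changes of 4-fold. The simulated counts left out the extra spread that the test estimates for each gene. Changes in genes with a wide spread, such as Tlr2 (SE 1.44 to 1.51), may be recovered less often. A gene that did not pass may therefore still differ. The 10 genes and the lists were chosen with earlier results of these data known. Of each pathway list, the text names up to 3 genes per comparison with the smallest adjusted p, and marks most others in place. Of each marker list, it names up to 3 genes with the highest mean CPM and any with 0 counts in a whole group. Mmp8, Fcgr1, Siglech, Uty, Kdm5d, Il12b and Ifnb1 were named outside these rules. Of the 102 listed pathway genes, Cgas was not matched by symbol. Promoter and protein sequences were not used here.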

Additional observations from a re-analysis of the deposited data

How the results depend on the processing

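The number of the 9 tested genes called in CCND2wt against Vec (2) was 4 with DESeq2, 0 with limma-voom (2 at an unadjusted p under 0.05; 0 higher and 0 lower), 0 with no filter, 1 with only the 2 groups compared, 0 with the CCND2wt libraries summed to 1 sample, and 1 with Vec 1 and CCND2mut 1 both left out. In CCND2mut against Vec (2) it was 1 with no filter, 1 with only the 2 groups, 1 with the summed libraries and 4 with both libraries left out. In CCND2mut against CCND2wt (5) it was 1 with the summed libraries. Leaving out each library in turn gave 0 to 2, 1 to 5 and 2 to 6 in the 3 comparisons, and 1019 to 3817 genes in CCND2wt against Vec (2938). Over all genes the summed libraries left 39 in CCND2wt against Vec and 2378 in CCND2mut against CCND2wt (803 higher and 1575 lower, against 3633 and 3727), and both libraries left out gave 4470 in CCND2wt against Vec.

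The replicate numbers are shared by only 2 pairs in each comparison, and deviations of same-numbered libraries had correlations of -0.06 to 0.15, so they were not taken to pair samples. With the number as a replicate block, 1636 genes and 1 member were called in CCND2wt against Vec and 3 members in CCND2mut against CCND2wt. The block turned the log2 fold change in CCND2wt against Vec to 1.01 for Tlr2, 0.14 for Tlr4 and 0.48 for Tlr13, and in CCND2mut against CCND2wt to -0.69 for Tlr2.

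Other reversals were of values that had not passed. Over the fits that left out 1 library each, those values ranged, in CCND2wt against Vec, from -1.67 to 0.53 for Tlr2, from -0.83 to 0.095 for Tlr4 and from -1.82 to 1.34 for Tlr13, each positive without Vec 1. In CCND2mut against Vec they ranged from -2.60 to 3.18 for Tlr2, from -0.53 to 3.18 for Tlr8 and from -1.59 to 0.014 for Tlr9; Tlr2 was negative without CCND2mut 1, Tlr8 without Vec 2, Vec 4 or CCND2mut 1, and Tlr9 positive without Vec 1. In CCND2mut against CCND2wt they ranged from -1.36 (without CCND2mut 1) to 3.26 for Tlr2 and from -0.22 (without CCND2mut 2) to 0.51 for Tlr7. With Vec 1 and CCND2mut 1 both left out, chosen after seeing the data, Tlr2, Tlr4 and Tlr13 were 0.53, 0.093 and 1.34 in CCND2wt against Vec, Tlr2 and Tlr9 were -0.84 and 0.11 in CCND2mut against Vec, and Tlr2 was -1.37 in CCND2mut against CCND2wt. In all, 20 values of single genes reversed, 47 lost and 16 gained a call, and 423 kept direction and side of the threshold. The order per length was the same with TPM for all 30 levels. The cause of these shifts was not tested. Tlr1, Tlr8 and Tlr9 rest on under 10 counts in CCND2wt, which limits the precision of their folds.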

Other observations

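Receptors of other families that recognise microbes were listed beside the Toll-like receptors. Of 13 tested, 1 rose and 3 fell in CCND2wt against Vec, and 4 rose and 5 fell in CCND2mut against Vec, where 18.8% and 51.8% of all tested genes passed. Nlrp3, the sensor of an inflammasome, stood at 271 to 757 CPM in Vec, 8.37 to 43.4 CPM in CCND2wt and 193 to 382 CPM in CCND2mut. It fell by 4.17 in CCND2wt against Vec (edgeR adjusted p = 0.00604) and was not called in CCND2mut (-0.64). Naip2, a cytosolic receptor for a part of bacterial secretion systems, rose in both groups, by 0.78 and 2.16 (edgeR adjusted p = 0.0428 and 0.000165), while its partner Nlrc4 fell by 1.62 and 2.67.

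In CCND2mut against Vec the RNA sensor Ddx58 (RIG-I) fell by 1.77 and the C-type lectin Clec4d rose by 1.67 (edgeR adjusted p = 6.66e-05 and 0.000809). Clec7a, the beta-glucan receptor dectin-1, was chosen after its values were seen. It stood at 27.3, 1.83 and 1.41 CPM in Vec 1, 2 and 4 and at 97.4, 80.0 and 183 CPM in CCND2mut 1, 2 and 3.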
